A study of Mus musculus with 13 samples.

Results

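A2 was the smallest of the B cells that were captured on a microfluidic chip, sized on images and sequenced one by one. It was compared with C12, C7, F7 and H1, the other 4 cells that GEO's labels place in the small group. It is 1 of 5 small cells among 10 single cells, 5 small and 5 large, in a series of 13 libraries. The names are the chambers of the chip, and A2 was taken by its name, with its high RNA content already known. All 10 came from naive B cells purified with magnetic beads from spleens of wild-type C57BL/6 mice aged 6 to 8 weeks and cultured for 24 h with the CpG oligonucleotide ODN 1668 at 250 nM by the study's methods (250 ng/mL in the protocol label), so every cell of the comparison had the same genotype, treatment and time. The other 3 libraries were a pool of cells at 24 h, a pool labelled 0 h and a control without cells. Neither the mouse nor the culture of a cell is named, and 1 cell stands on one side, so the values describe these 5 cells and carry no test.

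CpG oligonucleotides bind TLR9, an endosomal receptor for DNA, which signals through MyD88 to NF-κB. B cells activated in this way leave quiescence, enlarge, raise ribosome and metabolite production and divide, and some of their progeny become antibody-secreting plasma cells. Each B cell normally expresses 1 rearranged heavy chain and 1 rearranged light chain, though many unrelated cells use the same variable gene.

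On the spike-in scale A2 held the most RNA of the 5 small cells although it was the smallest of them. The volume of C12, C7 and F7 was 1.36 times that of A2, and the volume of H1 was 1.14 times that of A2. Gene counts reached 5205927 in A2, with a 95% exact Poisson interval of 5201460 to 5210400, against 5766550 in C12, 3311235 in C7, 6191247 in F7 and 5494038 in H1. Sequencing depth therefore did not set A2 apart. The deposited spike-in factor, which turns counts into amounts relative to an equal quantity of added control RNA, was 0.935 in A2, against 0.289 to 0.370 in the other 4. Counts times factor summed to 4867990 in A2, against 1732570, 978523, 2287970 and 1589890 in C12, C7, F7 and H1, which is 2.93 times their median and 2.13 times the highest. Per unit of volume A2 had 3.66 times the median of the others. The total of A2 was also above those of the large cells, which lay between 557519 and 4043240. More RNA in the cell and fewer spike-in reads recovered in its chamber cannot be told apart from 1 factor per library. Intervals cover counting error only, since no molecular identifiers were used and PCR can give several reads of 1 molecule.

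More genes were counted in A2 as well, and that number does not use the factor. At least 1 read fell on 8656 genes in A2, against 5719, 4113, 6593 and 6400 in C12, C7, F7 and H1. With every cell brought to 3000000 counts, 8294 genes were expected in A2, against 5300, 4061, 6153 and 5994 in C12, C7, F7 and H1. A gene was called on when its count times factor plus 100 exceeded 300, the scale of the study's methods. By that rule 3819 genes were on in A2, against 1673, 961, 2134 and 1686 in C12, C7, F7 and H1. Unlike the counts before it, this rule uses the factor, 0.935 in A2 and 0.289 to 0.370 in the others. A gene therefore needed fewer reads to be on in A2, here and in every number of genes on given below. The 10 most abundant genes took 12.2% of the counts of A2, against 8.39% to 13.1% in the other 4, within their range. The 100 most abundant took 27.4% in A2, against 33.1%, 37.5%, 27.3% and 30.4% in C12, C7, F7 and H1.

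**Figure D1:**
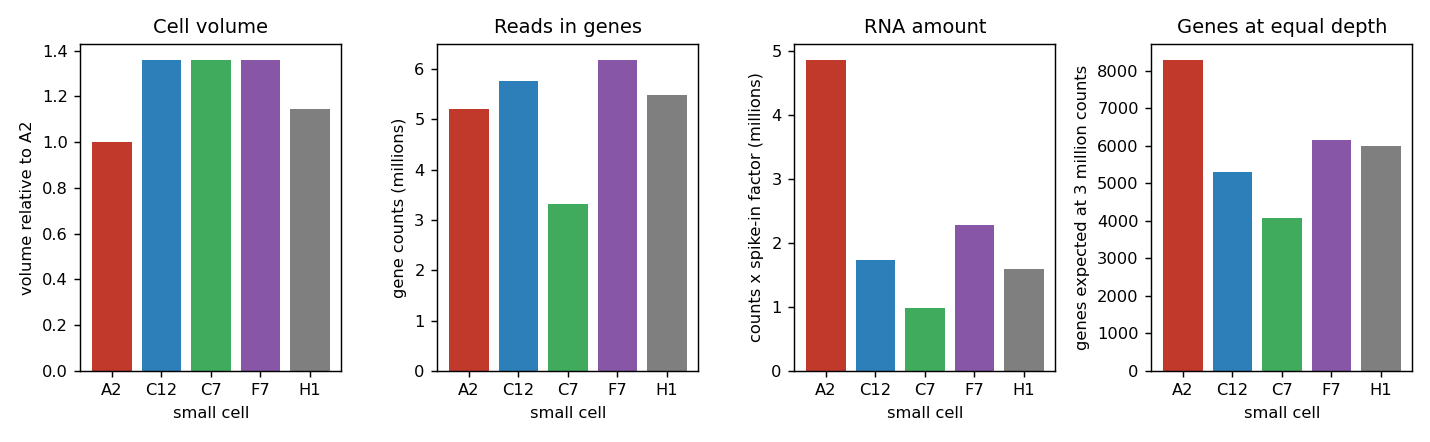
Bars give, for A2 and then C12, C7, F7 and H1, the cell volume relative to A2, the gene counts, the counts times spike-in factor and the genes expected at 3000000 counts. A2 has the lowest volume, with 4867990 normalized counts and 8294 genes at equal depth, both above the other 4 cells.

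Composition and amount gave different pictures of A2. By share, a gene's CPM in A2, its counts per 1000000 counts of the cell, were set against its mean CPM in the other 4 cells, with 20 CPM added to both. By amount, counts times factor were compared in the same way, with 100 added. Among the 5289 genes on in 1 or more of the 5 cells, 778 (14.7%) were at least 4-fold higher in A2 by share and 750 (14.2%) at least 4-fold lower, with a median log2 ratio of 0.06. By amount, 1360 (25.7%) were at least 4-fold higher and 114 (2.16%) at least 4-fold lower, with a median log2 ratio of 1.20. All 778 and all 1360 higher genes lay above all 4 other cells on their scale. Of the lower genes, only 73 of the 750 by share and 17 of the 114 by amount lay below all 4. The rest were lower than the mean of the 4 cells but not than each of them. Over all genes, 29.1% lay above and 4.24% below all 4 by share, and 55.2% and 0.945% by amount. Both scales called 773 genes higher, and 587 were higher by amount alone. Of the 750 genes lower by share, 636 were not 4-fold lower by amount, yet none of the 750 had a positive log2 ratio by amount.

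Genes that every small cell used showed this most simply. The 292 genes on in all 5 cells had a median log2 ratio of -0.47 by share and 1.05 by amount, and 72.9% of them were above all 4 other cells by amount, against 55.2% of all genes. Only 1 of the 292, Igkc, was 4-fold higher by share, and 14 were 4-fold lower. By amount, which rests on the spike-in factor, A2 thus had more of most shared transcripts. By share the typical one took a smaller part of its total. In A2, 1417 genes were on that were off in the other 4 cells, (26.8% of the 5289), against 314, 159, 413 and 266 genes on only in C12, C7, F7 and H1, and 754 of the 1417 were also on in a large cell. A further 1470 genes were off in A2 and on in at least 1 other small cell. Genes that entered the comparison through A2 alone could only be higher there. When genes were required to be on in one of the other 4, a choice made after seeing the data, 68 of 3872 (1.76%) were higher by share and 478 (12.3%) by amount, and the median log2 ratios were -0.61 and 0.59. Detection also sets the low side, since 299 of the 750 genes lower by share (39.9%) had no read in A2.

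**Figure D2:**
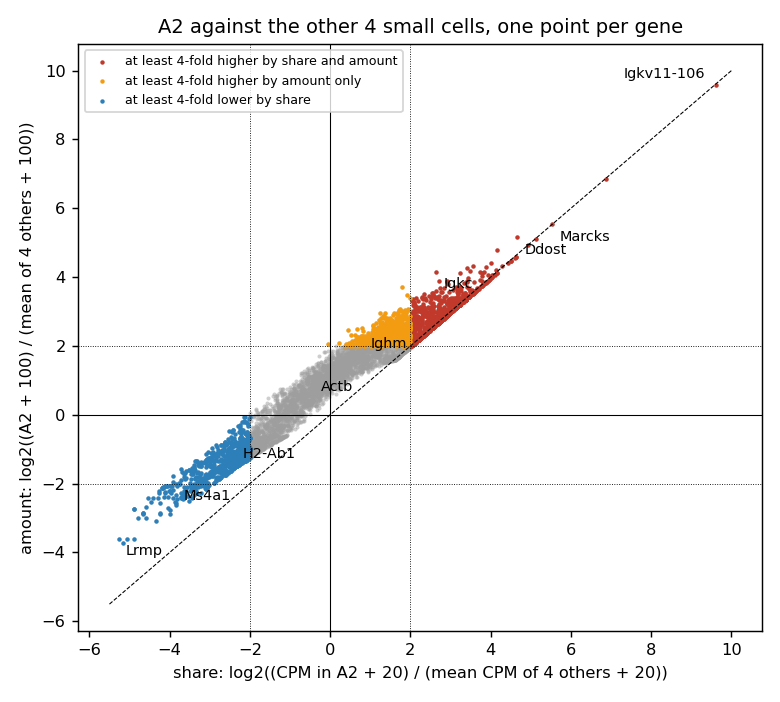
Each point is 1 of 5289 genes, with the log2 ratio of A2 over the mean of the other 4 small cells by share on the x axis and by amount on the y axis. The dotted lines mark 4-fold and the dashed line equality. Most points lie above the dashed line, with medians of 0.06 by share and 1.20 by amount.

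Immunoglobulin transcripts were the most abundant messages of A2 and took 6.88% of its counts, against 4.67%, 1.90%, 1.44% and 1.56% in C12, C7, F7 and H1. Ighm, the constant region of IgM, had 26494 CPM in A2, against 37079, 12275, 4353 and 6144 CPM in C12, C7, F7 and H1. By share A2 was therefore within the range of the others for Ighm, below C12. By amount Ighm was highest in A2, at 128974 normalized counts against 64241, 12012, 9960 and 9768 in C12, C7, F7 and H1. Igkc, the constant region of the κ light chain, had 23496 CPM in A2, against 4751, 2826, 3937 and 3456 CPM in C12, C7, F7 and H1. It was above every other small cell on both scales, with a log2 ratio of 2.64 by share and 4.14 by amount. Heavy chain transcripts of the switched class IgG2b were a minor part. Ighg2b had 933 CPM in A2, against 39.9, 802, 3607 and 2707 CPM in C12, C7, F7 and H1.

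One κ variable gene accounted for nearly all κ variable reads of A2, and the other small cells had none of it. Igkv11-106 took 81421 of the 83184 κ variable counts of A2, or 97.9% (95% exact binomial interval 97.8% to 98.0%), and no read in C12, C7, F7 or H1. At 15640 CPM it was the fourth most abundant gene of A2, and taking 3 counts as the limit of detection in each other cell it was at least 17263-fold higher by share. The next, Igkv5-39, had 1761 counts, or 2.12%. The other small cells led with other κ variable genes, which C7 and F7 had in common. Igkv1-99 took 95.3% of the κ variable counts of C12, and Igkv17-127 took 98.7% in C7 and 99.6% in F7. H1 differed, with Igkv17-121 at 52.97% and Igkv4-72 at 47.0%. Of the 27 heavy chain variable genes with a symbol in the reference, only Ighv3-6 was counted in A2, with 9 reads. Genes without a symbol were left out of this class, so these counts do not tell whether A2 lacked heavy chain variable transcripts. Variable genes are near copies of one another and reads may have been split among them, and the counting is not stated to use strand, so a gene and its antisense partner are not told apart either.

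Jchain, the joining chain of secreted IgM, had 1293 reads in A2 and none in the other 4 cells. That is 248 CPM, at least 274-fold higher by share. An unnamed gene, ENSMUSG00000076669, had 12228 reads in A2 and none in the other 4 cells. Having no symbol, it was not placed in any class of immunoglobulin genes here.

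**Figure D3:**
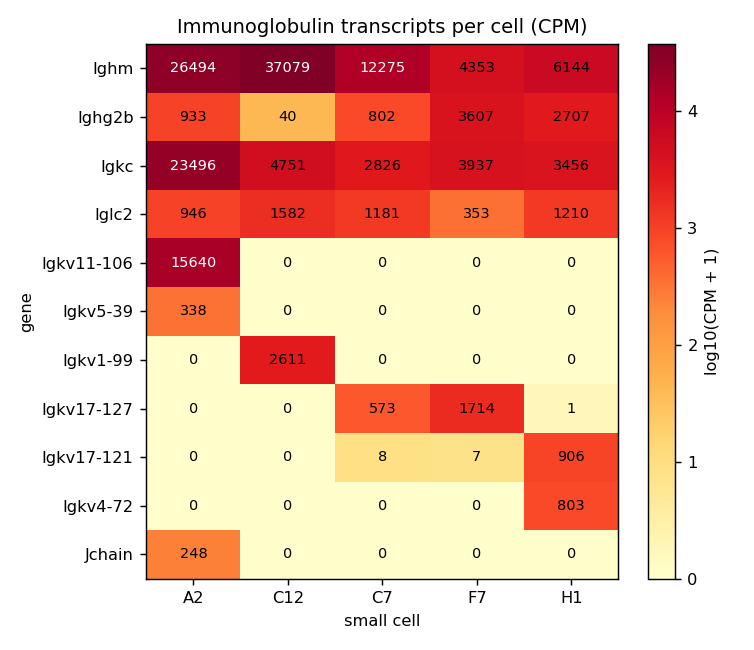
CPM of immunoglobulin genes (rows) in A2 and then C12, C7, F7 and H1 (columns), coloured by log10 of CPM plus 1. A2 has 15640 CPM of Igkv11-106 and 23496 CPM of Igkc, and the other 4 cells have no read of Igkv11-106, with Igkv17-127 leading in both C7 and F7.

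The 12 named genes with the largest ratios by share, Igkv11-106 among them, included secretory, amino acid and cytokine genes. Marcks, a membrane and actin-binding substrate of protein kinase C, had 945 CPM in A2, against 0 CPM in C12, C7 and F7 and 3.28 CPM in H1 (log2 ratio 5.53). Aldh18a1, an enzyme of proline synthesis, had 685 CPM in A2, against 0.173 CPM in C12 and 0 CPM in C7, F7 and H1. Ddost, a subunit of the oligosaccharyltransferase that adds sugars to new secretory proteins, had 1046 CPM in A2, against 32.3, 1.81, 53.6 and 0.910 CPM in C12, C7, F7 and H1. Ddost was thus counted in every small cell and was far highest in A2. Hspa13, a chaperone of the microsomal fraction, had 619 CPM in A2, against 0 CPM in C12, C7 and F7 and 4.37 CPM in H1. Asns (asparagine synthetase), Tspan3, Ccl5, Il12b, Nxpe4 and Tbc1d4 had between 416 and 476 CPM in A2 and no read in the other 4, which puts them at least 459-fold to 526-fold higher by share. Pmpcb, a subunit of the mitochondrial processing peptidase, had 402 CPM in A2, against 7.46 CPM in C12 and 0 CPM in C7, F7 and H1.

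Several of these genes were abundant in 1 large cell, C3, and the rest were not. C3 had reads for only 5 of 10 B cell markers, which summed to 3922 CPM, and was left out of the study's score. Ccl5, a chemokine, had 474 CPM in A2 and 14763 CPM in C3. Il12b, the p40 subunit of interleukin 12, had 466 CPM in A2 and 7043 CPM in C3. Marcks had 9748 CPM in C3, Tbc1d4 2802 CPM and Tspan3 1507 CPM, so 5 of the 12 genes were higher in C3 than in A2. Igkv11-106, Aldh18a1, Hspa13, Nxpe4 and Pmpcb had no read in C3. Over all genes, 63 had at least 500 CPM in C3 and under 20 CPM in every other cell but A2, and 26 of them (41.3%) reached 20 CPM in A2, at 0.646% to 31.6% of the level in C3. The same rule applied to each other cell in place of A2 gave 0% to 9.76%. Genes particular in the same way to C12, C7, F7 and H1 reached 20 CPM in A2 in 6 of 21, 8 of 25, 5 of 9 and 5 of 10 cases. For large cells C1, E1, E3 and G2 it was 1 of 1, 2 of 7, 0 of 11 and 3 of 22 cases. Of the 63 genes, 18 had no read in A2, among them Chst11 at 2034 CPM and Dennd5a at 1915 CPM in C3. This rule was chosen after the values were seen.

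Markers of other cell types were mostly absent from A2. It had reads for all 10 B cell markers, against 9 in each of C12, C7, F7 and H1. They summed to 69164 CPM, against 55736, 43765, 15472 and 22749 CPM. The list holds Ighm, Igkc and Igkv11-106, at 26494, 23496 and 15640 CPM in A2, which made up most of its sum. Igkv11-106 had no read in the other 4, so it alone gave A2 the larger number. Of the other members, Ms4a1, Cd74 and H2-Ab1 were lowest in A2 by share and Cd79a was not. A2 had no read for any T cell, NK cell, neutrophil, erythroid, mast cell or platelet marker. Of 11 macrophage and monocyte markers 2 were counted in A2, against 1, 3, 3 and 0 in C12, C7, F7 and H1, and they summed to 220 CPM, against 710, 1.51, 30.7 and 0 CPM, so C12 was above A2. Cd68, a lysosomal protein, made up nearly all of the sum in A2 and had no read in the other 4. Of 10 dendritic cell markers, 5 were counted in A2, against 2, 1, 1 and 1 in C12, C7, F7 and H1. They summed to 494 CPM, against 947, 43.8, 1236 and 1058 CPM. Irf8, which B cells also express, had 2343 of the 2574 reads of this list in A2. Itgax and Cd209a were at 0 and Zbtb46, a transcription factor of conventional dendritic cells, had 89 reads. A list of 12 genes typical of activated dendritic cells was added after the values were seen, so its counts are a description of A2 and separate nothing. Of these, 10 were counted in A2, against 1, 2, 2 and 2 in C12, C7, F7 and H1, and they summed to 4241 CPM, against 732, 44.7, 562 and 23.8 CPM. The same list summed to 38055 CPM in C3. It includes Ccr7, which activated B cells also express, as well as Fscn1 with 121 CPM and Cacnb3 with 189 CPM in A2 and no read of either in the other 4. The part of such transcripts in the ratios of A2, and whether its chamber held RNA of more than 1 cell, was not tested.

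**Figure D4:**
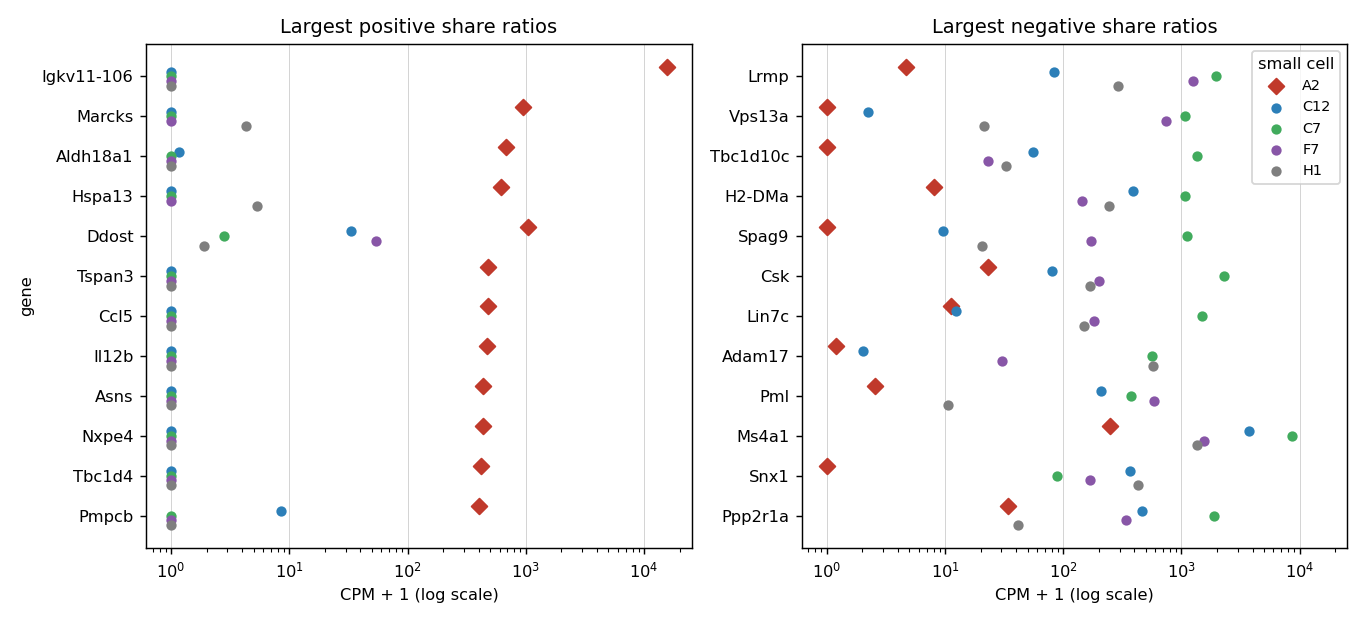
CPM plus 1 on a log axis for the 12 genes with the largest positive (left) and the 12 with the largest negative (right) log2 ratios by share, with A2 as a diamond and C12, C7, F7 and H1 as circles. On the left A2 lies between 402 CPM for Pmpcb and 15640 CPM for Igkv11-106, and on the right it lies below all 4 circles, up to 246 CPM for Ms4a1.

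Several genes for making amino acids were higher in A2, and none of those called was at 20 CPM in C3. The list of 23 was put together after the ratios were seen, with members picked for being high, so its counts are only a description. Of the 18 members above the filter, 11 were on in A2 alone and could only be higher there. In all 12 were at least 4-fold higher by share and 0 lower, against 14.7% of all genes higher, and their median log2 ratio was 2.14 by share and 2.67 by amount. Pycr1, which completes proline synthesis after Aldh18a1, had 259 CPM in A2 and no read in the other 4, at least 286-fold higher by share. Bcat1, which transfers the amino group of branched-chain amino acids, had 342 CPM in A2, against 0 CPM in C12, C7 and F7 and 14.4 CPM in H1. The serine pathway was also on in some other small cells. Phgdh, its first enzyme, had 303 CPM in A2, against 0, 0, 164 and 53.9 CPM in C12, C7, F7 and H1. Psat1, its second enzyme, had 500 CPM in A2, against 0.347, 0, 54.9 and 283 CPM in C12, C7, F7 and H1. Shmt2, which turns serine into glycine in mitochondria, had 959 CPM in A2, against 125, 0, 675 and 0 CPM in C12, C7, F7 and H1. F7 was thus the closest to A2 for Shmt2, and H1 for Psat1. The pool of cells at 24 h held many of them too, with 751 CPM of Aldh18a1, 686 CPM of Bcat1, 823 CPM of Phgdh and 1813 CPM of Shmt2.

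Aminoacyl-tRNA synthetases, which load amino acids onto tRNAs, were another list added after the values were seen. Of 19 members above the filter 4 were higher by share and 2 lower, against 14.7% and 14.2% of all genes, and 8 were higher by amount, against 25.7%. Their median log2 ratio was 0.82 by share, 0.51 without C7 and 1.5 without C12. Sars, for serine, had 598 CPM in A2, against 3.29, 0, 69.0 and 1.64 CPM in C12, C7, F7 and H1. Yars, for tyrosine, had 301 CPM in A2, against 0 CPM in C12, C7 and F7 and 13.8 CPM in H1. Gars, for glycine, had 944 CPM in A2, against 220, 0, 435 and 6.92 CPM in C12, C7, F7 and H1. Farsa, a subunit of the phenylalanine enzyme, went the other way with 7.68 CPM in A2, against 0.173, 4.83, 233 and 856 CPM in C12, C7, F7 and H1. C7 had 0 to 4.83 CPM of every synthetase named here. Of 21 members above the filter in the list of endoplasmic reticulum folding and stress genes, 3 were higher by share and 2 lower. That compares with 14.7% and 14.2% of all genes. The median log2 ratio of this list was 0.19 by share, -0.37 to 1.52 against single cells, and -0.07 without F7. Of its members, Chac1, a glutathione-degrading enzyme, had 215 CPM in A2 and no read in the other 4. Trib3, a pseudokinase, had 56.9 CPM in A2 and no read in the other 4.

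Promoters of the amino acid and synthetase genes are shown because of ATF4. This transcription factor acts on both groups in amino acid shortage and is known to bind composite elements that contain TGATGNAA. That string was sought on both strands in RefSeq promoters of GRCm38.p6, from 250 bases before to 50 after the start of each gene. The stricter TGATGCAA, which it includes, occurred in 294 of 32851 promoters (0.895%), and TGATGNAA in 1304 (3.97%). Of 11 amino acid genes called higher that had a promoter in the table, Asns and Pycr1 held TGATGNAA, against 2 of 8 genes of the list not called higher. Of 3 called synthetase genes with a promoter, Gars and Yars held it, against 3 of 10 not called. The match is a description of letters, not evidence of binding, and it was not more frequent among called amino acid genes. The matched bases are in capitals below, and Asns lies at chr6:7693160-7693459 (minus strand), Pycr1 at chr11:120643699-120643998 (minus strand), Yars at chr4:129189653-129189952 (plus strand) and Gars at chr6:55037751-55038050 (plus strand, where the match reads on the opposite strand).
Asns: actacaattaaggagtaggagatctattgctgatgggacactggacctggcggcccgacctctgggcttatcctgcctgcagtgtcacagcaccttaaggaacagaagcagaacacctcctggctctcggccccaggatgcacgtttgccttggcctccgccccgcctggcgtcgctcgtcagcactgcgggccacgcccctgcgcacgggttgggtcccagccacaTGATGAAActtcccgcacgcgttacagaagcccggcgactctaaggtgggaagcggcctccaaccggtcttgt
Pycr1: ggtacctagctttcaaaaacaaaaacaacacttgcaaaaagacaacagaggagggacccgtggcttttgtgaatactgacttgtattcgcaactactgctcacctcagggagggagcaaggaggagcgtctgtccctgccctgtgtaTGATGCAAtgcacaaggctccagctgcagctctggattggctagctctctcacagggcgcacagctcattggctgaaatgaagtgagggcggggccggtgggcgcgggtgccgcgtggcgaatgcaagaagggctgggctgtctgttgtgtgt
Yars: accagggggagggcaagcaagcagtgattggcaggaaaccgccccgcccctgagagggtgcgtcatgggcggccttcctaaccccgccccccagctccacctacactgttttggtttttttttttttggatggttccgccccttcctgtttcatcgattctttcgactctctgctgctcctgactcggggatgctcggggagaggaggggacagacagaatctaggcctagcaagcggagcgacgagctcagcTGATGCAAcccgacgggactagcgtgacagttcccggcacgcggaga
Gars: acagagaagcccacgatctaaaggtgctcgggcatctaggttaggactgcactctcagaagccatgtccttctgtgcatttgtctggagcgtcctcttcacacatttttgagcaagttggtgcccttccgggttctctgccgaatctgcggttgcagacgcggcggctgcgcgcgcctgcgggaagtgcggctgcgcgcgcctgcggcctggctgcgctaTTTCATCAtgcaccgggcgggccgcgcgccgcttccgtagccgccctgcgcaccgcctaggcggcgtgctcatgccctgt

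Genes of the secretory pathway were higher in A2 mainly by amount. Of 30 members above the filter in a list of endoplasmic reticulum translocation and N-glycosylation genes, also added after the values were seen, 4 were higher by share, against 14.7% of all genes, and 15 by amount, against 25.7%. None was lower on either scale, and 26 were above all 4 other cells by amount, against 55.2% of all genes. The median log2 ratio was 0.64 by share and 2.00 by amount, with 5 members on in A2 alone. Besides Ddost and Hspa13 these were Sec63, a partner of the translocon, with 168 CPM in A2, against 43.2, 9.97, 17.8 and 1.64 CPM in C12, C7, F7 and H1, and Sec11a, a signal peptidase subunit, with 222 CPM in A2, against 46.6, 0, 74.6 and 25.5 CPM in C12, C7, F7 and H1. Ssr3, a translocon-associated protein on in all 5 cells, had 1189 CPM in A2, against 734, 579, 238 and 683 CPM in C12, C7, F7 and H1.

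The plasma cell program had a median log2 ratio of 1.16 by share, and between 0.30 and 2.78 against each single cell. Of its 10 members above the filter, 1 was higher by share and 5 by amount, against 14.7% and 25.7% of all genes. Txndc5, a disulfide isomerase, had 227 CPM in A2, against 18.2, 0, 0 and 0.546 CPM in C12, C7, F7 and H1. Xbp1, the transcription factor of secretory expansion, had 922 CPM in A2, against 1196, 0, 0 and 4.19 CPM in C12, C7, F7 and H1. Prdm1, which encodes Blimp-1, had 194 CPM in A2, against 603, 14.5, 0 and 0 CPM in C12, C7, F7 and H1. C12 was thus above A2 by share for both regulators, and these values do not set A2 apart from C12. Irf4 had 198 CPM in A2, against 132, 102, 4.20 and 40.8 CPM in C12, C7, F7 and H1. Late plasma cell surface genes were near the limit of detection, with 15 reads of Sdc1 and none of Tnfrsf17 in A2.

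Antigen presentation by class II molecules was the list with the lowest median by share in A2. Its median log2 ratio was -1.88 by share, and -2.58 to -0.62 against each single cell, and 5 of its 10 members above the filter were at least 4-fold lower, against 14.2% of all genes. Of the 10, 6 were below all 4 other cells, against 4.24% of all genes and 38.7% of the 292 genes on in all 5 cells. A gene without a read in another cell cannot be below all 4, which keeps the first of these shares low. H2-Ab1, the β chain of I-A, had 562 CPM in A2, against 2761, 2373, 1479 and 5326 CPM in C12, C7, F7 and H1. Cd74, the invariant chain, had 916 CPM in A2, against 3316, 10018, 2492 and 3395 CPM in C12, C7, F7 and H1. H2-Aa, the α chain, had 560 CPM in A2, against 1813, 3832, 1072 and 4005 CPM in C12, C7, F7 and H1. Both I-A chains and Cd74 were thus lowest in A2 by share among the 5 small cells. In large cells C1, C3, E1, E3 and G2, H2-Ab1 had 1585, 0, 907, 596 and 4275 CPM. The pool at 24 h had 413 CPM of it, so a low share was not particular to A2. H2-DMa, which helps load peptides, had 37 reads in A2, or 7.11 CPM, against 385, 1063, 144 and 244 CPM in C12, C7, F7 and H1. By amount the picture was closer to equality. The median log2 ratio was -0.25, H2-Ab1 had 2735 normalized counts in A2, against 4783, 2322, 3384 and 8468 in C12, C7, F7 and H1, and only H2-DMa was 4-fold lower.

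B cell identity genes followed the same order, with a median log2 ratio of -1.56 by share and -0.35 by amount. Of 20 members above the filter, 7 were at least 4-fold lower by share and 1 higher, against 14.2% and 14.7% of all genes. Without H1 the median by share was -0.84, and against the median of the 4 cells it was -0.83. Ms4a1, which encodes CD20, had 246 CPM in A2, against 3745, 8529, 1557 and 1361 CPM in C12, C7, F7 and H1. It was below all 4 other small cells on both scales, as 50 genes (0.945%) were by amount, and had a log2 ratio of -3.84 by share and -2.01 by amount. In large cells C1, C3, E1, E3 and G2, Ms4a1 had 421, 0.242, 2457, 3423 and 54.0 CPM, and in the pool at 24 h 519 CPM. Cd72, an inhibitory co-receptor, had 95.3 CPM in A2, against 229, 572, 532 and 979 CPM in C12, C7, F7 and H1. The signaling chain Cd79a, at 1011 CPM in A2, against 1157, 3162, 717 and 1027 CPM in C12, C7, F7 and H1, lay within their range. The exception was Spib, an Ets factor, with 223 CPM in A2, against 0, 0, 120 and 5.82 CPM in C12, C7, F7 and H1. Class II and identity genes share Cd74, so the 2 lists are not independent. In the list of genes on in all 5 cells, Cd38 had 197 CPM in A2, against 2337, 1629, 170 and 1375 CPM in C12, C7, F7 and H1, and Fcrl5, an Fc receptor-like protein, had 91.2 CPM in A2, against 551, 1675, 1066 and 382 CPM in C12, C7, F7 and H1. Cd38 and Fcrl5 were named after their values were seen.

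Among the other named genes lower in A2 were regulators of signaling and traffic. Lrmp, a membrane protein of lymphocytes, had 3.65 CPM in A2, against 82.9, 1945, 1244 and 291 CPM in C12, C7, F7 and H1, with the lowest log2 ratio by share at -5.27. Csk, the kinase that holds Src family kinases inactive, had 22.1 CPM in A2, against 78.6, 2300, 200 and 168 CPM in C12, C7, F7 and H1. Vps13a, Tbc1d10c, Spag9 and Snx1 had no read in A2 and between 1.21 and 1356 CPM in the others. Lin7c, Adam17, Pml and Ppp2r1a had 0.192 to 33.0 CPM in A2. For Csk, Tbc1d10c and Spag9 a single cell, C7, carried most of the mean of the others.

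Genes of the TLR9 and NF-κB response were uneven. The TLR9 and MyD88 pathway had a median log2 ratio of 1.46 by share, with 3 of 13 members above the filter higher and 1 lower, against 14.7% and 14.2% of all genes, and 7 of the 13 were on in A2 alone. Tlr9 itself had no read in A2, C12, C7 or F7 and 2.73 CPM in H1. Myd88, its adaptor, had no read in A2, against 290, 0, 290 and 0 CPM in C12, C7, F7 and H1, so A2 matched C7 and H1. Irak2, a kinase downstream of MyD88, was higher in A2. It had 167 CPM in A2, against 19.8, 19.9, 0 and 2.73 CPM in C12, C7, F7 and H1, with 0.242 CPM in C3. Map3k7, which encodes the kinase TAK1, was also higher in A2, with 71.8 CPM. It had 3.47, 0, 0.323 and 0 CPM in C12, C7, F7 and H1, and 550 CPM in C3. Of 23 NF-κB target genes above the filter, 3 were higher and 1 lower by share, against 14.7% and 14.2% of all genes, and 11 were higher by amount, against 25.7%. The median log2 ratio was 1.12 by share and 0.73 without C7. Ccr7, a receptor for lymph node chemokines, had 1274 CPM in A2, against 0, 27.8, 441 and 0 CPM in C12, C7, F7 and H1, and 4433 CPM in C3. Nfkbia, the inhibitor IκBα, had 753 CPM in A2, against 649, 6.64, 221 and 206 CPM in C12, C7, F7 and H1. Tnfaip3, which encodes the feedback inhibitor A20, had 33.4 CPM in A2, against 836 CPM in F7 and 0 CPM in C12, C7 and H1, so F7 alone placed it among the lower genes. Nfkbiz, which encodes the nuclear inhibitor-like protein IκBζ, had 198 CPM in A2, against 204, 2883, 453 and 535 CPM in C12, C7, F7 and H1.

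Immediate early genes, which answer to fresh signals within minutes, were counted in A2 at levels that the other small cells mostly lacked. Of 13 members above the filter 8 were on in A2 alone, so that their direction was fixed by the filter. In all 6 were at least 4-fold higher by share, against 14.7% of all genes, with a median log2 ratio of 1.57. Egr1 had 168 CPM in A2, against 0.173, 0, 0 and 2.00 CPM in C12, C7, F7 and H1, and it was near 0 in C3. Junb had 113 CPM in A2, against 6.73 CPM in H1 and 0 CPM in C12, C7 and F7. Dusp1, a phosphatase of MAP kinases, had 215 CPM in A2 and no read in the other 4, at least 237-fold higher by share, with 1755 CPM in C3. Egr1 and Junb were thus higher in A2 than in C3, and Dusp1 lower. Rgs1, a regulator of G protein signaling, had 1048 CPM in A2, against 0, 0, 147 and 423 CPM in C12, C7, F7 and H1. Myc differed from these, with 206 CPM in A2, against 0, 0, 723 and 34.6 CPM in C12, C7, F7 and H1.

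Cytokines were a small added list in which 5 of 9 members above the filter were higher by share and 1 was lower, against 14.7% and 14.2% of all genes, and 4 of the 9 were on in A2 alone. The median log2 ratio was 2.11, 3.31 without C12, or 3.57 with the members unread in the other cells set to their lower bounds. Ccl3, a chemokine, had 704 CPM in A2, against 136, 0, 27.8 and 0 CPM in C12, C7, F7 and H1, and no read in C3. Ccl22, another chemokine, had 178 CPM in A2 and no read in the other 4 or in C3. Il10, a regulatory cytokine, had 305 CPM in A2, against 305, 26, 1.29 and 0 CPM in C12, C7, F7 and H1, so A2 and C12 were alike. Anti-apoptotic genes had a median log2 ratio of 1.35 by share over 7 members above the filter. It ranged from 0.05 to 3.54 against single cells and was 0.98 without C12 or without C7. By share 0 of the 7 were higher and 1 was lower, against 14.7% and 14.2% of all genes. The lower one was Mcl1, an inhibitor of apoptosis, at 29.8 CPM in A2, against 1105, 503, 261 and 115 CPM in C12, C7, F7 and H1. Bcl2l1, which encodes Bcl-xL, had 213 CPM in A2, against 134, 0, 0 and 98.8 CPM in C12, C7, F7 and H1.

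Genes of S to M phase were on in most cases in A2, H1 and F7 and seldom in C12 and C7. Of 27 S to M phase genes above the filter, 25 were on in A2, against 3, 1, 15 and 23 in C12, C7, F7 and H1. The median log2 ratio was 1.03 by share against the mean of the 4, but ranged from -0.30 to 3.90 against single cells, and was 0.67 without C7 and 1.96 without H1. By share 1 was called higher and 1 lower, against 14.7% and 14.2% of all genes, and by amount 19 were higher, against 25.7%. Mki67, the proliferation marker, had 520 CPM in A2, against 0.694, 0, 16.6 and 1363 CPM in C12, C7, F7 and H1. Top2a, a topoisomerase of dividing cells, had 1541 CPM in A2, against 0.694, 0, 845 and 1907 CPM in C12, C7, F7 and H1. Ccnb1, cyclin B1, had 316 CPM in A2, against 696 CPM in H1 and 0 CPM in C12, C7 and F7. H1 was thus above A2 by share for these 3 genes, and by amount A2 was above H1. Cenpf, a kinetochore protein, was the member called higher by share, with 274 CPM in A2, against 0, 0, 3.39 and 158 CPM in C12, C7, F7 and H1. Kif20a, a kinesin of cytokinesis, was the member called lower, with 5.38 CPM in A2, against 0, 0, 321 and 382 CPM in C12, C7, F7 and H1. Genes of origin licensing and replication gave another order, with 25 of 29 above the filter on in A2, against 5, 2, 21 and 6 in C12, C7, F7 and H1, so H1 was near C12 and C7. By share 5 were higher and 2 lower, against 14.7% and 14.2% of all genes. Among the 5 was Pola1, the catalytic subunit of DNA polymerase α, with 333 CPM in A2, against 0.173, 0, 20.5 and 80.8 CPM in C12, C7, F7 and H1.

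The growth lists had higher medians by amount than by share, and the ribosomal median by share was negative. All 49 cytosolic ribosomal protein genes above the filter were above all 4 other cells by amount, with a median log2 ratio of 1.03. That compares with 55.2% of all genes and 72.9% of the genes on in all 5 cells. By share 27 of the 49 were below all 4, against 4.24% of all genes and 38.7% of the genes on in all 5 cells. Their median by share was -0.44, and -0.52 to -0.30 against each single cell. None was 4-fold different by share. Many have near-identical processed copies, so single values are uncertain. Nuclear genes of the respiratory chain were all on in A2 (46 of 46, 9 of them in A2 alone, against 28, 11, 28 and 25 in C12, C7, F7 and H1), with a median log2 ratio of 0.15 by share (0.26 without C12) and 1.41 by amount. Proteasome subunits had medians of 0.34 by share (0.19 without C7) and 1.56 by amount, and 30 of 30 were on in A2. Among initiation factors, Eif4ebp1, which encodes a repressor of cap-dependent translation, had 310 CPM in A2, against 0.867 CPM in C12 and 0 CPM in C7, F7 and H1, and Eif4e, the cap-binding protein it restrains, had 703 CPM in A2, against 5.03, 0, 121 and 179 CPM. Eif1a went the other way, at 12.7 CPM in A2, against 559, 0, 466 and 531 CPM in C12, C7, F7 and H1. Slc19a1, the reduced folate carrier, had 257 CPM in A2 and no read in the other 4, and Slc3a2, the shared heavy chain of amino acid transporters, had 651 CPM in A2, against 0, 79.4, 48.8 and 430 CPM in C12, C7, F7 and H1.

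Of the 36 lists first chosen, 25 had a positive median by share, with the median over all genes at 0.06. Medians by share in the lists not yet described lay between -1.16 for regulators of G protein signaling and 1.19 for the type I interferon response. Of 15 members of the first, 2 were higher and 4 lower, against 14.7% and 14.2% of all genes. Of 8 members of the second, 2 were higher and 2 lower, and 4 of the 8 were on in A2 alone. The sign of the first depended on how the 4 cells were combined, since its median was 0 to 0.33 against each single cell, 0.50 against the median of the 4 and -0.53 and -0.73 without C7 or C12. The actin cytoskeleton had a median of -0.41 by share (-0.11 without C7 and -0.12 without C12) and 1.17 by amount. Mitochondrially encoded transcripts had a median of -0.67 by share (-1.44 to 0.54 against single cells, -0.42 without C7 and -0.41 without H1) and 0.91 by amount. Marginal zone and B1 markers summed to 2792 CPM in A2, against 3442, 2629, 1105 and 1297 CPM in C12, C7, F7 and H1, within their range, although S1pr3, a sphingosine phosphate receptor, had 208 CPM in A2 and no read in the other 4.

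**Figure D5:**
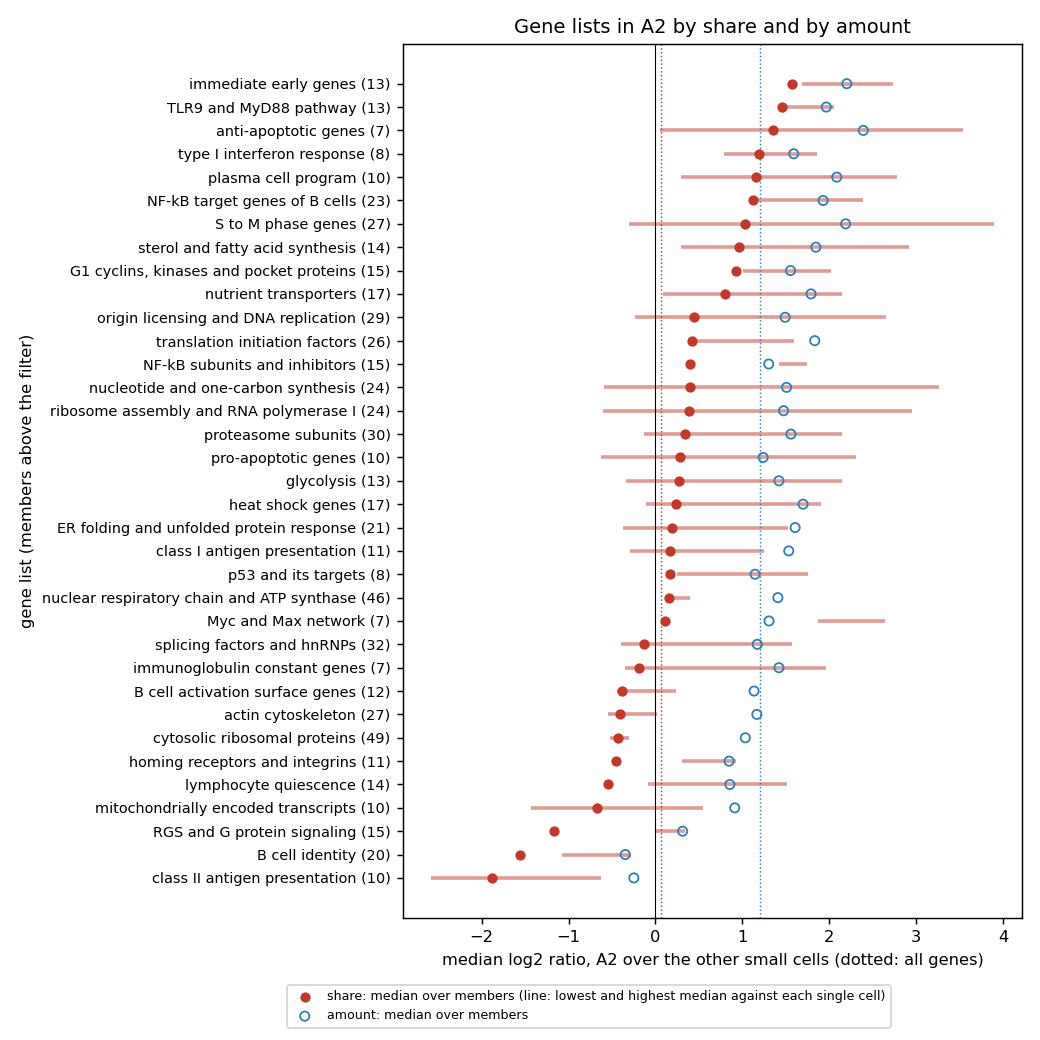
Median log2 ratio of A2 over the other 4 small cells for the members above the filter of each of the 36 lists first chosen that has at least 5 of them, by share (filled, with a line from the lowest to the highest median against a single cell) and by amount (open). A median against the mean of 4 cells can lie outside that line. Among these lists class II genes are lowest by share at -1.88 and immediate early genes highest at 1.57, and dotted lines mark the medians of all genes at 0.06 and 1.20.

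Across the 5289 genes, log2 CPM of A2 correlated more closely with 3 of the 5 large cells than with any other small cell. Pearson r was 0.52 with C1, 0.51 with E1 and 0.48 with E3, and 0.36 with G2 and 0.34 with C3, against 0.30, 0.25, 0.36 and 0.38 with C12, C7, F7 and H1. These are values across genes, which are not replicates, and the libraries share protocol and chip. F7 and H1 showed the same order, with r of 0.48 and 0.49 with C1 and 0.37 with each other, so it was not particular to A2. Of the 778 genes higher in A2 by share, 569 (73.1%) reached 20 CPM in at least 1 large cell. In the pool at 24 h 261 of them (33.5%) did so. The matching percentages of all 5289 genes are not given here, so these values alone show no particular likeness to large cells or the pool. For C3 both percentages were at hand. There 123 of the 778 genes (15.8%) reached 20 CPM, against 24.0% of all 5289 genes. The 778 genes were picked for being low in the other small cells, and the 5289 include genes that every cell used. These percentages therefore do not measure likeness to C3.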

How the data were processed

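RNA of single cells was amplified with the SMARTer kit on a Fluidigm C1 chip with ERCC spike-ins, made into Nextera XT libraries and sequenced. The authors aligned reads with STAR, with no version given in the sources read, to the Ensembl mouse build m37 and deposited whole-number read counts per gene. For the counting tool the sources used here give no name. The deposited spike-in factors (relative to C1 and the 0 h library, both 1), from the authors' fit to abundant spike-ins, and the relative volumes, from cell areas on images, were used as deposited. Another 26 per-sample columns, and the authors' scores, correlations and enrichment results for large against small cells, were not used.

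CPM is a gene's count per 1000000 counts of its cell, and amount is count times factor. Log2 ratios were A2 over the mean of C12, C7, F7 and H1, with 20 CPM or a constant of 100 added, over the 5289 genes above 300 in at least 1 small cell (count times factor plus 100). Called means at least 4-fold, with no p. Of 37991 genes, 32919 had a symbol in the reference tables. Expected genes at 3000000 counts were computed without random draws, and the code was tested on simulated data. No doublets were removed. A symbol was named if among the 12 largest or 12 smallest ratios by share above or below all 4 cells, the 10 most abundant in A2, up to 4 members per list, or the leading variable genes. Other genes were named after their values were seen, and some genes that the rule takes are not reported here. The members, the 36 gene lists, the 12 marker lists and the rules were chosen with earlier results of these data known, and 4 further lists and 1 marker list were added after the values were seen. Alternatives were other pseudocounts, filters, scalings, the median in place of the mean, and leaving out each other small cell. Depth was 3311235 to 6191247 counts per small cell, so 3 counts, the limit taken for a gene with none, are 0.485 to 0.906 CPM. The code ran in Python 3.11.15 with pandas 2.3.3 and numpy 2.4.6, intervals came from scipy 1.17.1, and figures from matplotlib 3.10.9.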

Additional observations from a re-analysis of the deposited data

Results flagged for a closer look

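Among 45 measures of the 5 small cells, 3 had a lowest or highest cell farther from the others than Dixon's 95% limit for 5 values allows, where chance gives about 1 in 20. The spike-in factor of A2 was 0.935, against 0.289 to 0.370 in the other 4 small cells, but A2 was chosen as an RNA-rich cell with this factor known, so its distance is a description and no test. The heat shock genes summed to 25956 CPM in F7 and to 9101 to 12438 CPM in the other small cells, A2 among them. The p53 list summed to 2539 CPM in C7 and to 626 to 1069 CPM in the other small cells, A2 among them. The causes were not tested.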

How the results depend on the processing

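The normalized total of A2 was 2.81 to 3.06 times the median of the others when each other small cell was left out, and the excess of genes at equal depth was 2300 to 2995. Genes called by share depended on the constant added, with 1191 higher and 1218 lower at 5 CPM and 240 and 249 at 50 CPM. By amount there were 2101 higher and 742 lower with a constant of 20, and 106 and 0 with 500. Against the median instead of the mean of the 4 there were 1444 higher and 247 lower by share (85.4% of calls higher, against 50.9%) and 38 lower by amount. With genes required to be on in another small cell, an alternative added after seeing the data, 68 were higher by share (8.31% of calls) and 478 by amount. Leaving out each other small cell gave 813 to 1057 higher and 739 to 787 lower by share, 1285 to 1677 higher and 118 to 160 lower by amount, and 24 to 26 lists with a positive median. Of the alternative list medians 317 moved by less than the spread between cells and 41 by more, and that of the Myc and Max network (0.11) ranged from -0.27 to 0.51 when each cell was left out. The ratios of 6 named genes turned from negative. Leaving out each cell gave -2.48 to 1.42 for Tnfaip3, -3.33 to 0.77 for Gng2, -2.37 to 0.041 for Pfkl, -2.54 to 0.42 for Ighg3, -3.16 to 0.045 for S1pr1 and -5.48 to 0 for Igkv1-99. Against the median they were 1.42 for Tnfaip3, 0.71 for Gng2, 0.041 for Pfkl, 0.015 for Ighg3 and 0 for Igkv1-99. Genes with few reads, such as H2-DMa with 37 in A2, are the least precise. No paired analysis was possible because A2 is 1 cell and no replicate number links small to large cells.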
